A study of Mus musculus with 29 samples.

Results

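The genes described here are the long intergenic noncoding RNA (lincRNA) genes that mouse pancreatic islets expressed at a measurable level. A gene was included if the deposited tables type it as lincRNA and its mean over the 14 RNA libraries was at least 2 counts per 1000000 gene counts (CPM), and the names H19, Meg3 and 1810007D17Rik were set aside. Of these names, 2 met the rule (128 genes met it before they were left out). This gave 126 of the 3297 lincRNA genes and of the 45232 genes in all. The genes were thus chosen by their mean level, which is given as a description. No diet or age comparison entered the choice, but a gene could pass through the groups where it was high. All mice were male wild-type C57BL/6, an inbred strain, and no gene was altered in any group. The 4 groups were young mice (8 weeks of age) or old mice (52 weeks) that ate either a standard diet (SD, 13.1% of kcal from fat) or a high-fat diet (HFD, 41%) for 1 week. The study asked how the islets of each age answer to a short period of high-fat feeding.

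A lincRNA is transcribed from its own gene between protein-coding genes, usually capped, spliced and polyadenylated like a messenger RNA, and has no long reading frame. Some lincRNAs act as RNA, for example as the scaffold of a nuclear body. Others are known mainly as hosts, since small nucleolar RNAs (snoRNAs, which guide the chemical modification of ribosomal RNA) or microRNAs are cut from their introns or exons. For many the function is not known, and their names are only clone or model numbers.

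Each diet had 3 RNA libraries from young and 4 from old mice, with 68395276 to 79652561 gene counts each. Among the old libraries, SD 2 and 4 agreed far more closely than other pairs, as did HFD 1 and 4, so both pairs entered as sums, 1 sample each (n = 3 in every group, 12 samples). The labels do not say that the libraries of a group came from separate animals, so p-values measure the spread between these samples only. In bulk RNA, fewer cells of a type and less RNA per cell cannot be told apart. Several measures moved with age. The summed level of beta, alpha and delta cell markers, none at 0 in any sample, was lower in every old than in every young sample: 263824 to 326288 CPM in young and 166445 to 245283 CPM in old samples for 8 beta cell markers, 15538 to 32512 against 9562 to 14419 CPM for 5 alpha cell markers, and 2862 to 3516 against 1279.5 to 1755 CPM for 3 delta cell markers. The summed level of 11 acinar (digestive enzyme) cell markers, none at 0, was 2309.6 to 46104 CPM in young samples and 57841 to 154087 CPM in old ones, and the share of uniquely mapped reads was 86.8 to 90.5% against 75.0 to 83.7%. The counts of the ages also stand in separate tables, so age, islet purity and library preparation cannot be told apart. Per-sample values are given below in CPM and in the order SD 1, 2, 3 and HFD 1, 2, 3, where old SD 2 is the sum of libraries 2 and 4 and old HFD 1 the sum of libraries 1 and 4.

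Of the 126 genes, 110 matched a RefSeq gene: 100 are long noncoding RNAs there, 7 are protein-coding, 2 are transcribed pseudogenes and 1 is a pseudogene. Small RNA genes lie inside 10 of them on the same strand. Snhg6, Snhg12, Snhg18 and 2410004N09Rik (now Epb41l4aos) hold snoRNA genes. E530001K10Rik (now Mir670hg), Ftx, Mirg, 5330434G04Rik, 2900076A07Rik and 2810008D09Rik (now Snhg20) hold microRNA genes. These 6 hosts carry 36 mature microRNAs in RefSeq with 35 different seeds, the 7 bases that pair with target RNAs. Mirg, a maternally expressed RNA of the imprinted region that also holds Meg3, accounts for 26 of them. The libraries measured the host RNA and not the mature microRNAs. The mature sequences are printed for E530001K10Rik, the gene that changed with diet in young islets, for 2900076A07Rik, which changed with age, and for the only pair in Mirg that shares a seed. Capitals mark the seed, bases 2 to 8 from the 5′ end.
miR-670-5p: aUCCCUGAguguauguggugaa
miR-670-3p: uUUCCUCAuauccauucaggagugu
miR-1839-5p: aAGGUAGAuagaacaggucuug
miR-453: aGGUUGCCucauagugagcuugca
miR-496a-5p: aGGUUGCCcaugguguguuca

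The promoters of these genes were rich in CpG. RefSeq (GRCm38.p6, the mm10 assembly) gave a promoter window of 300 bases, 250 before and 50 after the start, for 92 distinct genes among the members. Where a gene had several windows, the first listed was counted. Of these windows, 62 (67.4%) had a ratio of observed to expected CpG above 0.6, against 36.4% of all 27025 promoters, 48.3% of protein-coding promoters and 14.2% of other long noncoding RNA promoters. These backgrounds were not limited to genes expressed in islets, while the members were chosen by level. Whether promoters of other expressed genes are as rich in CpG was not tested. The motif GGGCGG, on either strand, was in 56.5% of members' windows and 35.9% of all. TGACGTCA was in 6.52% and 1.88%, CACGTG in 14.1% and 7.24%, and TATAAA in 7.61% and 14.2%. These are matches of letters and were not tested as binding sites. Promoters for 3 genes are printed because their RNA differed with diet or age and their base composition differs. The window of E530001K10Rik, which changed with diet, is chr2:94265039-94265338, minus strand, and its start lies 330 bases from the Ensembl start. Capitals mark the match to TGACTCA, 120 bases before the start, and to TATAAA, 24 bases after it. Its ratio of observed to expected CpG was 0.431. This gene has 4 windows, and the percentages above used another of them, with a ratio of 0.472.
E530001K10Rik: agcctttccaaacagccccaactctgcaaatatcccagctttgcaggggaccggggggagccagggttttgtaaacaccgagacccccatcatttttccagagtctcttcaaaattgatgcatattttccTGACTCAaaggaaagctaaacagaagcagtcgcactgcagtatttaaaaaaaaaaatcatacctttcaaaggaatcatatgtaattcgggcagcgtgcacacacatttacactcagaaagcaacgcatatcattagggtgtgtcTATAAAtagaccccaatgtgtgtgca
The window of 1110020A21Rik, which was lower in old islets, is chr17:84957661-84957960, minus strand. It is the nearer of 2 to the Ensembl start. The percentages above used the other (chr17:84957374-84957673), which holds TGACGTCA and no GGGCGG. Capitals mark 4 matches to GGGCGG (read here as CCGCCC) and 3 to CCAAT (read as ATTGG).
1110020A21Rik: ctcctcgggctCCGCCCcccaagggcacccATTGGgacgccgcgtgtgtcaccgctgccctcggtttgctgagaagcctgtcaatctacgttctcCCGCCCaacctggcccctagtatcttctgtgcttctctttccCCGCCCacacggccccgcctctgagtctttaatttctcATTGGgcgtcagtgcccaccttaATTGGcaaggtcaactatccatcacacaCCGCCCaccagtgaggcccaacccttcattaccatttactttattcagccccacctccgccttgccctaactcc
The window of Fam120aos, also lower in old islets, is chr13:48967862-48968161, plus strand, and its start lies 175 bases from the Ensembl start. Capitals mark its 54 CpG, and 86.7% of its bases are G or C.
Fam120aos: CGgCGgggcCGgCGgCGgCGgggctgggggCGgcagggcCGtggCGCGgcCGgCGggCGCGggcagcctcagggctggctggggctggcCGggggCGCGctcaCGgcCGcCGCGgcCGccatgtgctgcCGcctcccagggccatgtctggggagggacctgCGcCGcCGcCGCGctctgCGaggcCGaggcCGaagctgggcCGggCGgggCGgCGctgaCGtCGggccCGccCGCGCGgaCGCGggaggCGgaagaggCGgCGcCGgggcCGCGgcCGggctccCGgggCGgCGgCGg

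Many of these genes start next to a protein-coding gene. The nearest protein-coding start was within 1000 bp for 54 members (42.9%), and 41 (32.5%) faced that gene head to head. The same held for 9.08% and 6.12% of the other 3171 lincRNA genes, and for 38.5% and 28.6% of the 252 others with a mean of at least 0.2 CPM. A further gene overlapped 35 members on the opposite strand and 17 on the same strand. The counting strand is not given in the sources used here, so reads of such overlapping genes may not be told apart. Means ran from 2.00 to 1637 CPM with a median of 4.81, and 33 members had 10 or more. Just inside the limit of 2 CPM were 4930480K23Rik (2.00), RP24-211P15.1 (2.05) and 1700112J16Rik (2.06), and just outside it Gm11549 and Gm20342 (both 1.97) and Gm12576 (1.94). The mean of every group was at least 2 CPM for 107 members, and 19 were under it in 1 or more groups. Among these, 2 were under it in both young groups and 2 in both old groups. All 126 passed the filter on low counts in every comparison, and the lowest raw count of a member in a library was 85.

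High-fat diet in young islets changed a single member past the threshold. E530001K10Rik (ENSMUSG00000075020.5, chr2:94251879-94264758, minus strand), the host of miR-670, was at 20.7, 20.6 and 20.5 CPM on SD and 31.9, 30.7 and 31.5 CPM on HFD. The groups lay far apart and each was narrow. The means were 20.6 ± 0.0643 and 31.4 ± 0.580 CPM (SD, n = 3 each), a rise of 1.60-fold (log2 0.68, SE 0.05, adjusted p = 0.0269 by edgeR's quasi-likelihood test with Benjamini-Hochberg adjustment over all genes). Over all genes tested, 0.0299% passed (0.0179% higher and 0.012% lower), and 0.0253% of protein-coding genes with at least 2 CPM. The rise was 0.65 to 0.71 (log2) under every alternative run, but its adjusted p was 0.0843 to 0.321 without any 1 of the 6 libraries. In old islets the same gene was at 19.7, 11.6 and 19.3 CPM on SD and 20.98, 17.1 and 18.9 CPM on HFD, and the groups overlapped (log2 0.33, SE 0.16, adjusted p = 0.278). The difference between the ages was -0.34 (SE 0.18, adjusted p = 0.478).

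No other member passed in young islets. In all, 40 were higher and 86 lower on HFD, with a median of -0.08 (log2), against -0.02 over all genes. The groups did not overlap for 27 members (21.4%, against 23% of all genes). At an unadjusted p under 0.05 there were 14 members (11.1%, against 17.1% of all genes), and DESeq2 called 2, E530001K10Rik and Yam1, against 5% of all genes. The authors' deposited table for young islets also has these 2 members past an adjusted p of 0.05, with 3.94% of all genes.

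In old islets, 6 members changed with diet, 2 upward and 4 downward, against 4.48% of all genes (2.12% higher and 2.36% lower) and 6.11% of protein-coding genes with at least 2 CPM. The 2 that rose were Gm16973 and Gm17767, both of unknown function. Gm16973 (ENSMUSG00000097743.1, chr14:56696280-56701268, minus strand) lies over the gene Mphosph8 on the opposite strand. It was at 10.5, 8.39 and 10.9 CPM on SD and 15.2, 12 and 11.6 CPM on HFD, so the highest SD sample was below the lowest HFD sample (log2 0.53, SE 0.10, adjusted p = 0.0345, edgeR). Gm17767 was at 15.2, 13.1 and 13.2 CPM on SD and 20.97, 15.9 and 16.5 CPM on HFD. These groups were also apart, by less than 1 CPM (log2 0.51, SE 0.09, adjusted p = 0.0317, edgeR).

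The 4 that fell in old islets on HFD were AI480526, Gm27033, 4632404H12Rik and Gm14290. Gm27033 (ENSMUSG00000098053.1, chr5:147280720-147281263, plus strand) starts 10761 bp from the start of Pdx1, a transcription factor of beta cells, on the same strand. It was at 12.1, 10.9 and 12.3 CPM on SD and 7.33, 7.61 and 7.05 CPM on HFD, with no overlap (log2 -0.53, SE 0.09, adjusted p = 0.0315, edgeR). In young islets its values were 8.37, 7.88 and 8.39 CPM on SD and 5.71, 6.35 and 6.00 CPM on HFD. These groups did not overlap either, though the difference missed the threshold (log2 -0.38, SE 0.11, adjusted p = 0.174, edgeR). Pdx1 itself was at -0.17 (log2, SE 0.07, adjusted p = 0.193) in old islets and -0.48 (SE 0.07, adjusted p = 0.0910) in young ones, neither past the threshold. Gm14290 (ENSMUSG00000086605.1, chr2:167098794-167101826, minus strand) was at 17.2, 15.5 and 15.2 CPM on SD and 11.4, 9.74 and 11.6 CPM on HFD (log2 -0.40, SE 0.09, adjusted p = 0.0497, edgeR). Among members past the threshold with diet in old islets it was the only one whose nearest protein-coding gene also passed: Znfx1 fell as well (log2 -0.29, SE 0.04, adjusted p = 0.0259).

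AI480526 (ENSMUSG00000090086.4, chr5:123133723-123141666, minus strand) faces Setd1b, a histone methyltransferase gene, head to head at 527 bp. In old islets it was at 7.22, 12.1 and 9.34 CPM on SD and 3.65, 4.39 and 3.89 CPM on HFD (log2 -1.12, SE 0.24, adjusted p = 0.0467, edgeR). Every HFD sample was below every SD sample, and Setd1b was at -0.02 (log2, adjusted p = 0.919) in the same samples. 4632404H12Rik, which faces Ube2q1 at 376 bp, was at 15.7, 12.8 and 13.1 CPM on SD and 10.1, 7.90 and 8.67 CPM on HFD (log2 -0.50, SE 0.09, adjusted p = 0.0374, edgeR). Ube2q1 was at -0.06 (adjusted p = 0.517).

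**Figure D1:**
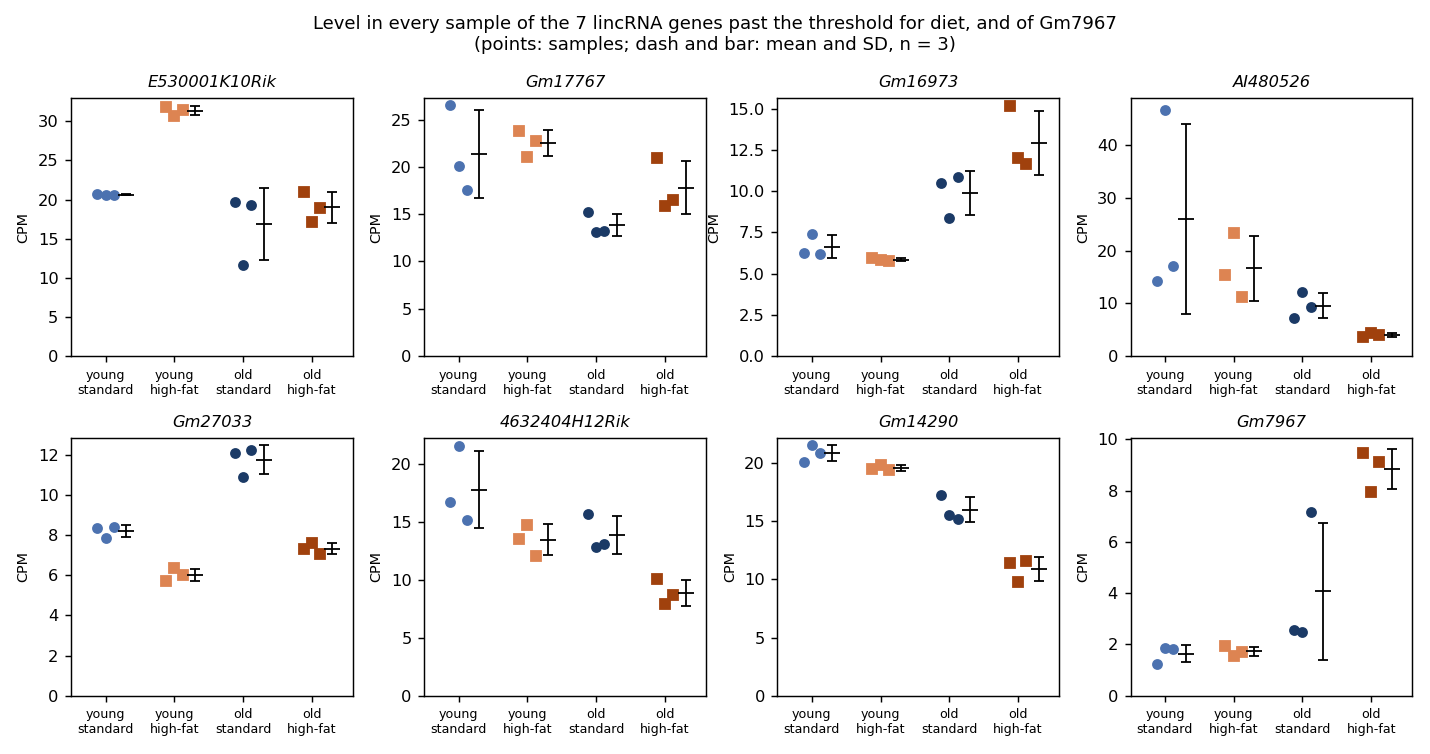
Level in CPM (y axis, from 0) of the 7 genes past the threshold for diet and of Gm7967, by group (x axis), with a point for each sample and the mean and SD beside it (n = 3). E530001K10Rik stands at 30.7 to 31.9 CPM in young HFD samples and at 20.5 to 20.7 CPM in young SD samples, while in old islets its groups overlap.

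These 6 calls rest on few samples. Without any 1 of the 6 old samples, 0 to 1 of them passed (0 to 2 members in all), with 0 to 2.72% of all genes. With a lymphocyte marker level as a covariate 0 did, with 0.0177% of all genes. The share of all genes thus fell as well, from 4.48% with all samples. All 6 kept their direction in every alternative. The summed level of 8 lymphocyte markers was 26.03, 131 and 25.5 CPM in old SD samples 1, 2 and 3 and 43.9, 11.4 and 16.6 CPM in HFD samples 1, 2 and 3. With the SD sample of 131 CPM and the HFD sample of 43.9 CPM both left out, 11 members passed, 5 of the 6 among them, with 7.03% of all genes. Over all members, 54 were higher and 72 lower on HFD (median log2 -0.04, all genes 0.00), and the groups did not overlap for 37 (29.4%, against 26% of all genes). DESeq2 called 18 members, the 6 among them, against 12.9% of all genes. The authors' deposited table has 14 members past an adjusted p of 0.05 in old islets, 7 in each direction, with 12.5% of all genes. It rests on the same libraries, and whether the closely agreeing pairs entered it as separate samples was not checked. With all libraries as separate samples, edgeR called 19 members, with 17.7% of all genes.

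No member passed the test of whether the diet difference differed between the ages (0 of 126 by edgeR, with 0.204% of all genes, 0.17% higher and 0.034% lower). At an unadjusted p under 0.05 there were 14 members, 11.1%, against 12.5% of all genes, and DESeq2 called 4, against 2.91% of all genes. The smallest p-values belonged to Gm16973, A830039N20Rik, 1700086L19Rik and Gm14290. Gm16973 was higher on HFD in old islets and at 6.26, 7.42 and 6.18 CPM on SD against 5.94, 5.82 and 5.76 CPM on HFD in young ones (difference of differences 0.64 log2, SE 0.13, adjusted p = 0.0752). 1700086L19Rik was at 67.2, 53.1 and 64.6 CPM on SD and 43.1, 52.6 and 43.8 CPM on HFD in young islets. In old islets it was at 54.2, 42.6 and 60.9 CPM on SD and 76.8, 53.3 and 56.2 CPM on HFD (0.73, SE 0.19, adjusted p = 0.146). A830039N20Rik had the opposite sign (-0.60, SE 0.13, adjusted p = 0.0907), as had Gm14290 (-0.39, SE 0.10, adjusted p = 0.151).

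**Figure D2:**
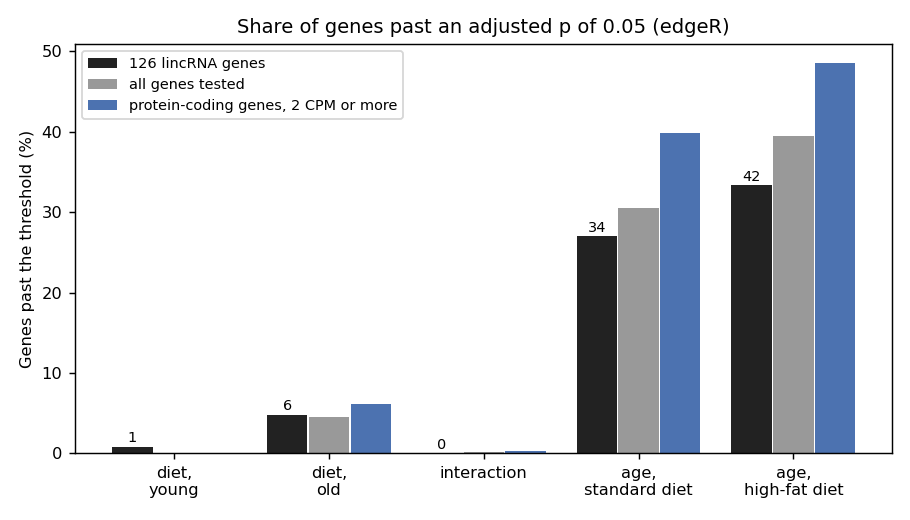
Share of genes (y axis, percent, from 0) past an adjusted p of 0.05 in each of the 5 comparisons (x axis), for the 126 lincRNA genes, all genes tested and protein-coding genes with a mean of at least 2 CPM. The numbers over the black bars count lincRNA genes, from 0 for the interaction to 42 for age on HFD.

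Age moved many more of these genes. On SD, 34 members changed between young and old islets, 16 higher and 18 lower in old ones (26.98%), against 30.5% of all genes (13.8% higher and 16.7% lower) and 39.9% of protein-coding genes with at least 2 CPM. On HFD, 42 changed, 19 higher and 23 lower (33.3%), against 39.5% of all genes (19.3% higher and 20.2% lower) and 48.5% of those protein-coding genes. The members' share was thus below that of these protein-coding genes in both diets, a difference that was not tested. The protein-coding set had no upper limit and was not matched in level to the members, of which 66 had a mean under 5 CPM. Calls depend on level, so the 2 shares are not like for like. The groups did not overlap for 39 members on SD (31.0%, against 35.9% of all genes) and for 60 on HFD (47.6%, against 47.8%). Both lists held 22 members, 64.7% of the SD list and 52.4% of the HFD list, and all 22 had the same sign, 12 higher and 10 lower. Over all genes, 4130 passed on both diets, 76.8% of the SD list and 59.3% of the HFD list, and 4106 of them had the same sign. The sign was the same for 79.4% of members and for 79.6% of all genes. The 2 comparisons share no sample, but they share the estimate of the spread and the confounding of age with purity. With the acinar marker level as a covariate, 29 members passed on SD and 21 on HFD, with 27.3% and 21.8% of all genes. Without both SD samples richest in intronic reads (young 2, old 3) 22 members and 19.3% of all genes passed on SD.

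Gm7967 (ENSMUSG00000100009.3, chr1:98589517-98607384, plus strand), of unknown function, rose most with age on both diets. Its young samples were all under 2 CPM, so it met the rule (mean 4.34 CPM) through the old samples alone. A rise with age was thus favoured by the choice of genes. It was at 1.25, 1.85 and 1.81 CPM in young SD samples and 2.58, 2.48 and 7.16 CPM in old ones. Old SD sample 3 stood far above the other two (log2 1.26, SE 0.34, adjusted p = 0.0152, edgeR). On HFD it was at 1.92, 1.54 and 1.72 CPM in young samples and 9.47, 7.97 and 9.10 CPM in old ones, all 3 high (log2 2.399, SE 0.34, adjusted p = 0.000308, edgeR). On SD the adjusted p was 0.0508 without young sample 1. In old islets the HFD samples were all above the SD samples, but the difference missed the threshold (log2 1.29, SE 0.38, adjusted p = 0.104).

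Other members higher in old islets on both diets included Gm16973 (log2 0.54 on SD and 1.18 on HFD), A830019P07Rik (1.00 and 0.77) and 2310010J17Rik (0.83 and 0.77). A830019P07Rik was at 2.14, 2.67 and 2.18 CPM in young SD samples and 5.14, 4.47 and 4.72 CPM in old ones, without overlap. 6330403K07Rik, which RefSeq lists as protein-coding, was also higher on both (0.83 and 0.74). Its call was lost in 5 of 14 alternatives on SD (highest adjusted p 0.150, edgeR). On HFD it was lost in 5 of 13 (highest adjusted p 0.113, edgeR). AW112010, a transcript known from activated immune cells, was higher in old islets on SD, at 5.14, 2.52 and 3.02 CPM in young and 6.78, 9.73 and 5.90 CPM in old samples (log2 1.05, SE 0.34, adjusted p = 0.0357, edgeR). Its highest young and its highest old value fell in the samples with the highest summed lymphocyte markers of their group, 94.7 and 131 CPM. Both were also highest of their group for macrophage markers (298 and 251 CPM) and fibroblast and stellate markers (373 and 237 CPM). Without old SD sample 2 the change was 0.74 (adjusted p = 0.133), and it also missed the threshold without young sample 2 or 3 or old sample 1. The same held with the acinar covariate (adjusted p = 0.106) and without both SD samples richest in intronic reads (0.0969, edgeR). The part of any of these cell types in it was not otherwise tested.

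Members that were lower in old islets on both diets included AI480526, Fam120aos, 1110020A21Rik, A830039N20Rik and Gm14290. AI480526 was at 14.2, 46.8 and 17.1 CPM in young SD samples and at 15.3, 23.3 and 11.3 CPM in young HFD samples. Against the old values above, the change was -1.44 (log2, SE 0.41, adjusted p = 0.0214) on SD and -2.02 (SE 0.43, adjusted p = 0.00358) on HFD. On SD it rests on young sample 2: without it the change was -0.76 (adjusted p = 0.0969), and without both intron-rich samples -0.71 (adjusted p = 0.208). It also missed the threshold without old sample 1 (adjusted p = 0.0803) or 3 (0.0704). Setd1b fell with age too, with changes of -0.50 on SD and -0.47 on HFD (SE 0.07 each, adjusted p = 0.000543 and 0.000511).

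Fam120aos (ENSMUSG00000097059.1, chr13:48968287-48972031, plus strand), transcribed away from Fam120a at 270 bp, varied little within groups (SD of log2 CPM 0.09, against a median of 0.17 over members). It was at 51.2, 54.7 and 51.1 CPM in young and 37.4, 27.6 and 36.9 CPM in old SD samples (log2 -0.67, SE 0.07, adjusted p = 6.54e-05, edgeR). On HFD it was at 49.8, 51.2 and 49.9 CPM in young and 28.6, 25.6 and 25.98 CPM in old samples (log2 -0.87, SE 0.07, adjusted p = 8.92e-06, edgeR). No old sample reached a young one on either diet. Fam120a, which Fam120aos faces head to head, fell as well, with changes of -0.35 (SE 0.05, adjusted p = 0.000642) on SD and -0.68 (SE 0.05, adjusted p = 8.86e-06) on HFD. 1110020A21Rik was at 5.40, 6.43 and 5.77 CPM in young and 2.98, 2.90 and 3.40 CPM in old SD samples (log2 -0.96, SE 0.10, adjusted p = 8.34e-05, edgeR). On HFD its change was -0.66 (SE 0.10, adjusted p = 0.000559). A830039N20Rik, which lies inside Kcnma1 on the same strand, fell as well, with changes of -0.55 on SD and -1.15 on HFD (adjusted p = 0.00127 and 1.15e-05), and shared reads with that gene could not be separated.

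Further falls on both diets were those of A530017D24Rik (-0.58 on SD and -0.68 on HFD), D130017N08Rik (-0.55 on each) and Gm30173 (-0.46 and -0.63), all of unknown function. Gm30173 missed the threshold on SD without young sample 2 (adjusted p = 0.0611) and on HFD with the acinar covariate (0.0921, edgeR). A530017D24Rik was at 8.49, 9.70 and 9.03 CPM in young and 7.26, 5.51 and 5.94 CPM in old SD samples, and at 8.88, 8.68 and 8.66 CPM in young and 5.21, 5.47 and 5.13 CPM in old HFD samples. No old sample reached a young one (adjusted p = 0.00163 and 0.000439, edgeR). Some changes passed on 1 diet, which does not show that the diets differ. Among them, 2610035D17Rik was lower on SD (-0.92, adjusted p = 0.0361) and at -0.20 (adjusted p = 0.620) on HFD, and 3222401L13Rik was higher on HFD (0.78, adjusted p = 0.00159) and at 0.28 (adjusted p = 0.174) on SD. The call of 2610035D17Rik on SD was lost in 5 of 14 alternatives (highest adjusted p 0.188, edgeR). Ino80dos was lower on HFD (-0.72, adjusted p = 0.0142) and at -0.54 (adjusted p = 0.0601) on SD, and A930024N18Rik likewise (-0.60, adjusted p = 0.00779, and -0.35, adjusted p = 0.0886). On HFD, Ino80dos missed the threshold without young sample 2 (adjusted p = 0.0631) or old sample 2 (0.0596, edgeR). With the acinar covariate Ino80dos, 3222401L13Rik and A930024N18Rik all missed it on HFD (adjusted p = 0.110, 0.0646 and 0.0549, edgeR). On SD, Gm6297 (-0.58, adjusted p = 0.0418) and Gm26559 (-0.56, adjusted p = 0.00519) were lower and 2310040G24Rik was higher (0.80, adjusted p = 0.00386). Their values on HFD were -0.22, -0.32 and 0.42 (adjusted p = 0.399, 0.0532 and 0.0658). The call of Gm6297 on SD was lost in 8 of 14 alternatives (highest adjusted p 0.264, edgeR). 1700007L15Rik was higher on both diets (0.64 and 0.57, adjusted p = 0.0114 and 0.0169). On SD it missed the threshold without both samples richest in intronic reads (adjusted p = 0.0714, edgeR). Gm15706 and RP23-304A10.2, among the 10 members with the highest CPM, passed in no comparison by edgeR or DESeq2, at 21.8 to 32.1 and 27.9 to 40.7 CPM over the 12 samples.

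E530001K10Rik was lower in old islets on HFD (log2 -0.69, SE 0.13, adjusted p = 0.00158, edgeR), where its young samples were high, and at -0.34 (SE 0.13, adjusted p = 0.0650) on SD. With the acinar covariate its call on HFD was lost (adjusted p = 0.0513, edgeR). Gm27033 was higher in old islets, by 0.48 (adjusted p = 0.00256) on SD and 0.33 (adjusted p = 0.0167) on HFD, the opposite of its sign with diet in old islets. Gm17767 was lower with age on SD (-0.66, adjusted p = 0.00262). These age and diet comparisons share samples, so their signs are not independent.

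**Figure D3:**
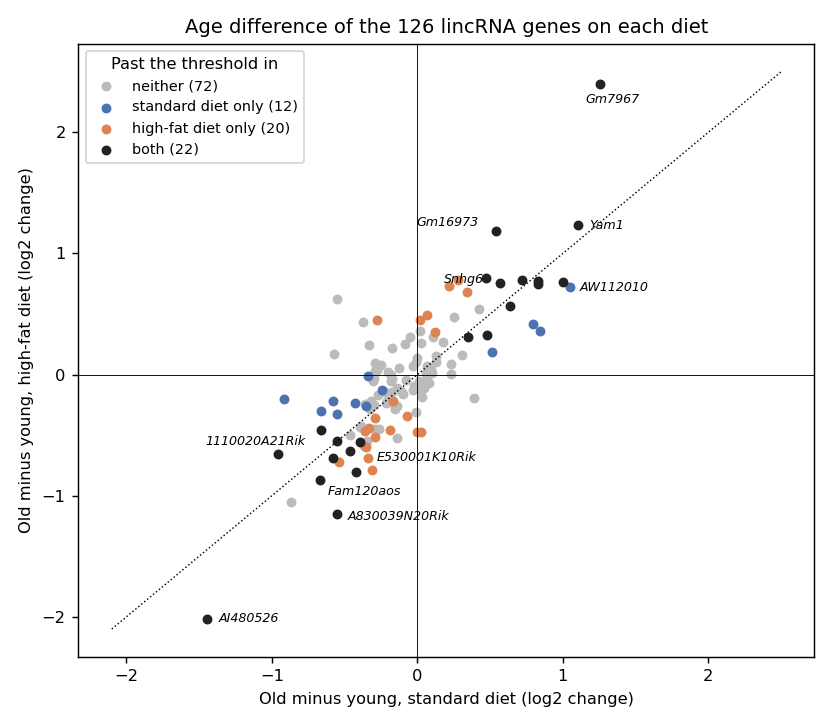
Change with age (old minus young, log2) of each of the 126 lincRNA genes on SD (x axis) and on HFD (y axis), a point for each gene, coloured by where it passed the threshold. The dotted line marks equal change, and the 22 genes past the threshold on both diets have the same sign on both, from AI480526 (-1.44 and -2.02) to Gm7967 (1.26 and 2.399).

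3 Ensembl lincRNA genes next to each other on chromosome 7 did not move alike. Gm37494 (chr7:39552496-39565319), Gm4790 (chr7:39566946-39570556) and 6230415J03Rik (chr7:39571672-39576231), all on the plus strand, match 1 RefSeq gene, Gm33989, which is protein-coding there. On HFD, Gm37494 was higher in old islets by 0.78 (log2, SE 0.22, adjusted p = 0.0144) and Gm4790 by 0.80 (SE 0.13, adjusted p = 0.000608), whereas 6230415J03Rik fell (log2 -0.79, SE 0.16, adjusted p = 0.00306). The last was at 2.89, 2.76 and 2.85 CPM in young and 1.51, 1.68 and 1.56 CPM in old HFD samples. On SD the first pair was higher as well (0.72 and 0.47, adjusted p = 0.0250 and 0.0151) and 6230415J03Rik was at -0.31 (adjusted p = 0.172). The call of Gm37494 was lost in 4 of 13 alternatives on HFD (highest adjusted p 0.087, edgeR). On SD it was lost in 4 of 14 (highest adjusted p 0.129, edgeR).

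Of the snoRNA hosts, Snhg6 and Snhg12 were higher and Snhg18 lower in old islets. Snhg6 (chr1:9941959-9944118, minus strand), host of Snord87, was at 3.09, 3.57 and 2.84 CPM in young and 4.63, 4.69 and 5.05 CPM in old SD samples (log2 0.57, SE 0.11, adjusted p = 0.00301, edgeR), and its change on HFD was 0.76 (adjusted p = 0.000378). Snhg12, host of Snora16a, Snora44, Snora61 and Snord99, was at 6.77, 7.61 and 5.50 CPM in young and 12.1, 9.04 and 11.02 CPM in old HFD samples (log2 0.73, SE 0.14, adjusted p = 0.00154, edgeR). On SD its groups overlapped (0.22, adjusted p = 0.257). Snhg18, host of Snord123, was at 18.3, 18.7 and 18.7 CPM in young and 13.3, 10.8 and 12.1 CPM in old SD samples (log2 -0.66, SE 0.06, adjusted p = 4.08e-05, edgeR). On HFD it fell as well (-0.46, adjusted p = 0.000235). 2410004N09Rik passed in no comparison by edgeR (DESeq2 adjusted p = 0.0443 for age on HFD), and neither did 2810008D09Rik, which is named as a snoRNA host (Snhg20) but holds only a microRNA gene in the annotation used.

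Many snoRNA hosts and ribosomal protein genes begin with a run of pyrimidines (C or T), a start known from genes of the translation machinery. RefSeq starts with at least 6 of them were found for 5 of the 92 members' genes (5.43%, against 2.93% of all promoters), Snhg12 and Snhg18 among them. Their first 50 bases are printed because these RNAs moved in opposite directions with age. Capitals mark the run of 6 at the start. Both runs begin with T, so neither meets the stricter form of this start, which begins with C. Snhg12 is at chr4:132308678-132308727, plus strand, and Snhg18 at chr15:32244613-32244662, minus strand.
Snhg12: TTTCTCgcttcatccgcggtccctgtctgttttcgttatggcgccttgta
Snhg18: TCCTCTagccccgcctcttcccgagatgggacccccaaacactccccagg
Of the 17 genes named as snoRNA hosts in the tables, members or not, 5 were higher and 1 lower with age on SD and 7 higher and 2 lower on HFD, with medians of 0.22 and 0.47 (log2), against -0.01 and 0.01 over all genes. Over all genes tested, 13.8% were higher and 16.7% lower on SD and 19.3% higher and 20.2% lower on HFD, which is the background for these and the next counts. The next sets are protein-coding genes. Of protein-coding genes with at least 2 CPM, 39.9% passed in either direction on SD and 48.5% on HFD. Of 90 ribosomal protein genes tested, 45 were higher and 9 lower on SD and 45 higher and 10 lower on HFD. Of 10 genes of nonsense-mediated decay, which degrades many such host RNAs, 0 were higher and 4 lower on SD, and 1 was higher and 6 lower on HFD. A link between these genes and the level of the hosts was not tested. Of 8 protein partners of snoRNAs, 1 was higher on SD and none on HFD by edgeR. With diet, none of these 17 genes passed by edgeR in either age. By DESeq2, Snhg12 and Snhg18 passed for diet in old islets (adjusted p = 0.00576 and 0.0168), and the authors' deposited table has both higher on HFD there (log2 0.44 and 0.30, adjusted p = 0.00719 and 0.0348).

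The nuclear body RNAs Malat1, found in nuclear speckles, and Neat1, the scaffold of paraspeckles, varied widely within groups and passed in no comparison by edgeR. Neat1 was at 80.7, 228 and 80.8 CPM in young SD, 87.1, 150 and 70.5 CPM in young HFD, 66.3, 110 and 88.9 CPM in old SD and 184, 178 and 101 CPM in old HFD samples. In each young group sample 2 was by far the highest, and the old groups overlapped (diet in old islets log2 0.93, SE 0.27, adjusted p = 0.101, edgeR). By DESeq2 it passed for diet in old islets (adjusted p = 0.0484), and the authors' deposited table has it higher on HFD there (log2 0.53, adjusted p = 0.0496). Malat1 was at 226, 222 and 488 CPM in old SD and 177, 135 and 206 CPM in old HFD samples. Old SD sample 3 was far above the other two of its group, and the difference with diet was -0.69 (SE 0.30, adjusted p = 0.235). Of 8 paraspeckle proteins, 2 were higher and 2 lower with age on SD, and 3 higher and 1 lower on HFD, against 39.9% and 48.5% of expressed protein-coding genes past the threshold in either direction.

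Mirg was at 12.4, 30.9 and 13.9 CPM in young SD, 16.5, 27.1 and 12.1 CPM in young HFD, 7.97, 11.7 and 11.9 CPM in old SD and 7.01, 11.7 and 7.18 CPM in old HFD samples. All old samples were below all young ones, yet the change missed the threshold on SD (log2 -0.87, SE 0.39, adjusted p = 0.116) and on HFD (-1.05, SE 0.39, adjusted p = 0.0517). 2900076A07Rik, the host of miR-1839, was higher in old islets on HFD, at 4.30, 4.27 and 3.80 CPM in young and 6.35, 6.54 and 6.35 CPM in old samples (log2 0.68, SE 0.14, adjusted p = 0.00318, edgeR). Ftx and Jpx, RNAs of the X inactivation centre, passed in no diet comparison. Ftx passed in no age comparison either, and Jpx was lower with age on HFD (log2 -0.52, SE 0.19, adjusted p = 0.0481). 1700020I14Rik, the conserved RNA known as Cyrano or Oip5os1, was lower in every HFD sample than in every SD sample of the same age, without reaching the threshold by edgeR. It was at 47.5, 55.1 and 50.8 against 43.2, 38.3 and 42.2 CPM in young islets (log2 -0.24, SE 0.06, adjusted p = 0.166). In old islets it was at 53, 52.4 and 48.2 against 40.4, 35.3 and 34.5 CPM (-0.33, SE 0.07, adjusted p = 0.0502). By DESeq2 it passed there (adjusted p = 0.00188), and the authors' deposited table has it lower on HFD (log2 -0.31, adjusted p = 0.00270).

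**Figure D4:**
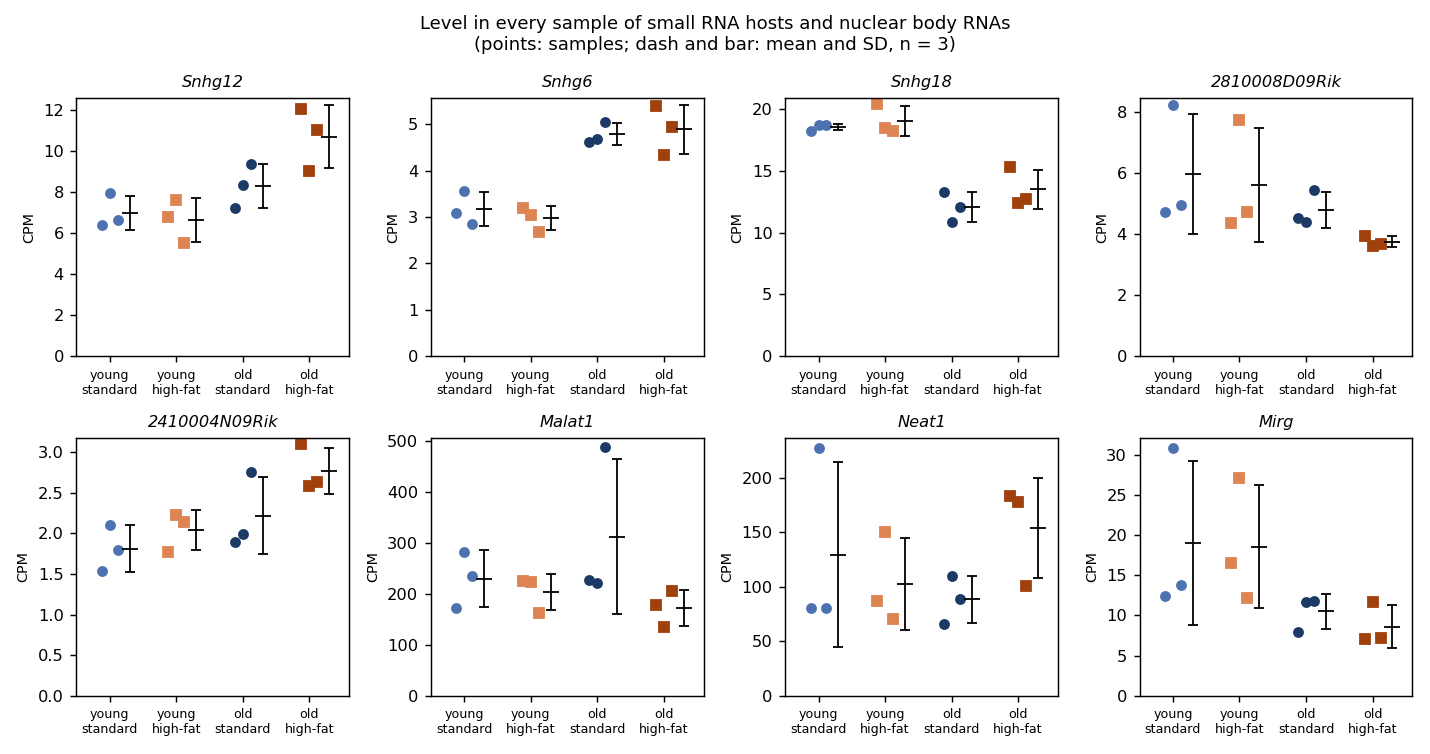
Level in CPM (y axis, from 0) of 4 members with snoRNA genes, 2 with microRNA genes (2810008D09Rik and Mirg) and the nuclear body RNAs Malat1 and Neat1, by group (x axis), with a point for each sample and the mean and SD beside it (n = 3). Snhg6 is higher and Snhg18 lower in every old sample than in every young one, while young SD sample 2 stands alone for Neat1 (228 CPM) and Mirg (30.9 CPM).

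The largest spread within groups (SD of log2 CPM, pooled over groups) was that of Neat1 (0.59), AI480526 (0.57), Mirg (0.54), Gm17491 and AW112010 (both 0.47) and Gm7967 (0.44). The median over members was 0.17. Among the 12 samples Neat1, AI480526, Mirg and Gm17491 were all highest in young SD sample 2, which also had the highest share of intronic reads, 4.64%. The summed share of gene counts of 124 members, leaving out Yam1 and Gm26917, was 0.174% in that sample and 0.166% in old SD sample 3, whose intronic share was 4.48%. In the other samples it was 0.116 to 0.141%, at 2.75 to 3.58% intronic reads. With Malat1 and Neat1 also left out, young SD sample 2 still had the highest share (0.123%), whereas old SD sample 3, at 0.1081%, was just above the 0.0847 to 0.1077% of the other samples. Over the 12 samples the 2 shares correlated with Pearson's r = 0.940 (permutation p = 0.00015, adjusted 0.00075 over 5 relations) and Spearman's rho = 0.802 (permutation p = 0.00249, adjusted 0.0125). Without these 2 samples r was 0.719. Within the 6 young samples r was 0.989 (exact permutation p = 0.00278, adjusted 0.00694) and rho 0.986 (p = 0.00556, adjusted 0.0139), with r 0.773 without the 2 farthest. Within the 6 old samples r was 0.906 (exact permutation p = 0.0347, adjusted 0.0434) and rho 0.771 (p = 0.103, adjusted 0.128), and r fell to 0.312 without the 2 farthest, so in old islets the relation rests on those samples.

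Yam1 and its neighbour Gm26917 belong to a locus that resembles ribosomal RNA. Yam1 (ENSMUSG00000098178.1, chr17:39846958-39848788, plus strand) overlaps Rn18s-rs5, a pseudogene related to 18S ribosomal RNA at chr17:39846354-39848202, and its reads may come from ribosomal RNA genes elsewhere. It was at 911, 809 and 961 CPM in young and 1824, 2155 and 1912 CPM in old SD samples (log2 1.103, SE 0.16, adjusted p = 0.000540, edgeR). On HFD it was at 1143, 1001 and 984 CPM in young and 1977, 2582 and 2518 CPM in old samples (log2 1.24, SE 0.16, adjusted p = 0.000187, edgeR). Every old sample was above every young one. The share of reads assigned to ribosomal RNA in the quality tables was 1.73 to 2.32% in young and 2.94 to 3.70% in old samples, and neither had overlap between the ages. Yam1 and that share correlated in young samples (r = 0.951, exact permutation p = 0.0125, adjusted 0.0208, n = 6, and rho = 0.943, p = 0.0167, adjusted 0.0278). Without the 2 farthest r was 0.724. In old samples r was 0.766 (exact permutation p = 0.0986) and rho 0.486 (p = 0.356), and r was -0.596 without the 2 farthest, so no relation held there. Gm26917, at 34.6, 46.6 and 49.7 CPM in young and 82.6, 67.7 and 91.8 CPM in old SD samples, was higher with age on SD (log2 0.84, SE 0.18, adjusted p = 0.00391) and at 0.36 (adjusted p = 0.125) on HFD. With this pair counted, members held 0.221 to 0.259% of gene counts in young and 0.328 to 0.380% in old samples, and without it 0.118 to 0.174% and 0.116 to 0.166%.

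**Figure D5:**
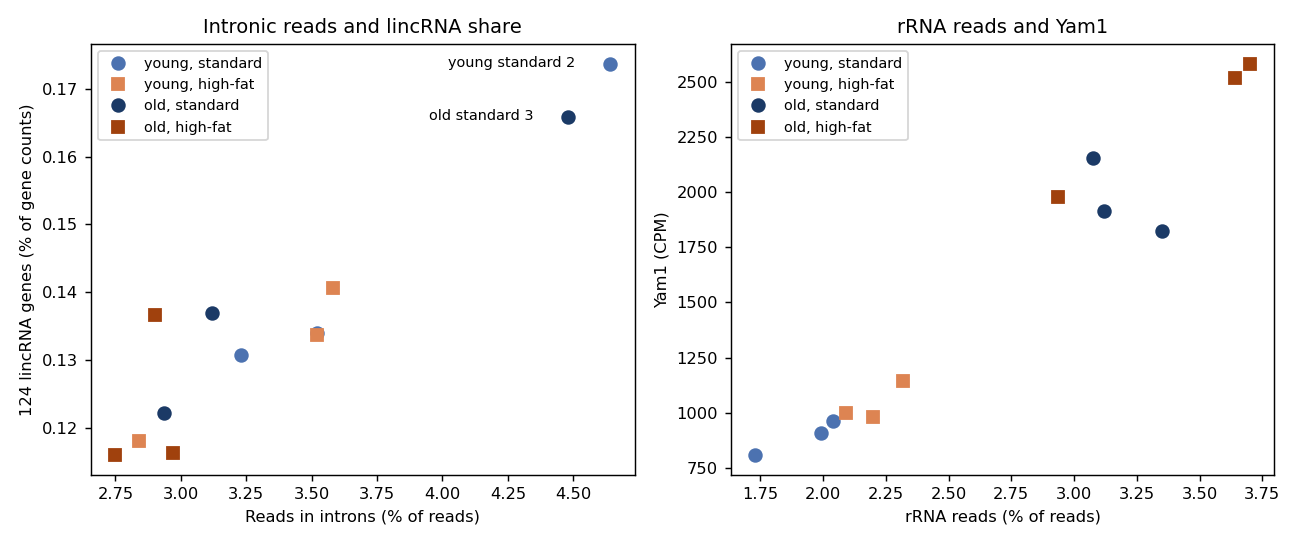
Left, summed share of gene counts of 124 lincRNA genes (y axis, percent) against the share of intronic reads (x axis, percent). Right, Yam1 in CPM (y axis) against the share of ribosomal RNA reads (x axis, percent), with a point for each of the 12 samples in both panels. The samples young SD 2 and old SD 3 stand apart on the left at 4.64% and 4.48% intronic reads, and on the right old samples lie above young ones on both axes.

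Members and their nearest protein-coding gene, where both were tested, had the same sign in 62 of 107 pairs (57.9%) for diet in young islets and 56 of 108 for diet in old ones. For age it was 67 of 109 (61.5%) on SD and 66 of 109 (60.6%) on HFD. Both genes passed the threshold in 11 pairs for age on SD, 8 of them with the same sign, and in 14 on HFD, 10 with the same sign. These shares are descriptions, and no test of them was made.

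DNA methylation, read by bisulfite sequencing in 15 libraries (4 per group, 3 for old HFD), covered few of these promoters. In a window from 1500 bases before to 500 after the start, 94 of the 126 promoters had any reads. Fewer than 20 reads over all libraries together, or none, were found for 81 of the 126. At least 20 reads in every library were found for 3: those of Trp53cor1, Gm26917 and Yam1. The last 2 lie in the locus that resembles ribosomal RNA. Whether their bisulfite reads came from similar sequences elsewhere was not tested. None of the 3 passed, and of the 73 to 76 promoters tested per comparison 0 were called (0%). Trp53cor1, an RNA also named lincRNA-p21 that is induced by p53, had 380 to 531 reads per young library and a methylation level of 30.2% ± 1.32 on SD and 31.5% ± 2.48 on HFD (SD, n = 4 each). In old islets it was 24.5% ± 7.50 on SD (n = 4) and 28.3% ± 7.83 on HFD (n = 3), a spread several times that of young ones (adjusted p = 0.952 for diet and 0.822 for age, quasi-binomial model with limma's moderation). Gm26917, with 27 to 53 reads per old library, was at 16.5% ± 12.7 on SD and 1.96% ± 1.86 on HFD (unadjusted p = 0.0313 and adjusted p = 0.642, the same model). Its old SD libraries were at 6.98, 34.9, 14.6 and 9.43%, with library 2 far above the others. The old HFD libraries were at 3.70, 0 and 2.17%. Yam1 was at 3.14% ± 1.69 and 3.44% ± 1.43 in old islets, at 148 to 235 reads (adjusted p = 0.952).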

How the data were processed

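Tools named in the submitters' processing notes are STAR 2.4.2a, featureCounts 1.4.3, Picard 1.83, DESeq2, Trimmomatic, BSMAP and bedtools, with the build mm10. Files deposited by the authors hold raw counts of reads by Ensembl gene (1 table for each age), percent of reads by class, and, per CpG site, coverage counts and the percent of methylated reads. The authors' deposited comparison tables give log2 fold changes, p-values and mean normalised values (signal). Deposited scores support no result.

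The 126 genes and all gene lists were chosen with earlier results of these data known. CPM used each column's total. Libraries of 1 group with a scaled median chi-square under 3 over genes of at least 500 counts were summed (2.86 and 2.96, against 8.41 to 56.3 for other pairs). Whether each such pair is 1 animal was not tested. Samples were grouped by the labels' age and diet. Genes were tested with edgeR 4.0.16 (TMM, filterByExpr, quasi-likelihood F test, two-sided, Benjamini-Hochberg, threshold 0.05) in R 4.3.3. Diet was fitted on the libraries of 1 age, and age and the interaction on all groups. Folds rest on TMM-scaled libraries and can differ from ratios of CPM. Alternatives, among them DESeq2 1.42.0, are given at the end. Promoter methylation used a quasi-binomial model with limma 3.58.1 and at least 20 reads in every library. On simulated counts, 86, 84, 72, 84 and 89% of genes changed by 1 (log2) were recovered for diet in young islets, diet in old islets, the interaction, age on SD and age on HFD. The spread of these counts followed the trend with level and held no gene's own spread. Smaller changes, such as most of those called with diet, were not simulated.

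Named are members past the threshold (up to 12 largest rises and falls per comparison, or the 4 smallest p), members of role lists, the 10 with the highest CPM, the 6 with the largest spread, those with testable promoters, and 3 on each side of the CPM limit. Levels of different genes were not ranked, since exon lengths were not used. Reads have no molecular identifiers, so a count is not a molecule. Shares of a gene's transcripts were not analysed here, because the transcript table was not joined to genes.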

Additional observations from a re-analysis of the deposited data

How the results depend on the processing

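Alternatives were DESeq2, other scaling, no filter on low counts, the replicate block, separate libraries, leaving out each sample, and marker levels as covariates. Some were chosen after seeing the data: the acinar covariate for age, and leaving out both lymphocyte-rich or both intron-rich samples. None of the 1, 6, 4, 24 and 24 members followed for diet in young islets, diet in old islets, the interaction, age on SD and age on HFD changed sign in any of them. Percentages are all genes past the threshold in the same setting. For diet in young islets, 2 members passed with DESeq2 (5%) against 1 (0.0299%). With the acinar covariate (0.0299%), the lymphocyte covariate (0%) or without any 1 sample (0%), 0 passed. For diet in old islets, against 6 (4.48%), DESeq2 gave 18 (12.9%), separate libraries 19 (17.7%), the acinar covariate 10 (8.67%) and the lymphocyte covariate 0 (0.0177%). Both lymphocyte-rich samples left out gave 11 (7.03%), with 0 to 2 (0 to 2.72%) without any 1 sample. For the interaction, against 0 (0.204%), DESeq2 gave 4 (2.91%) and separate libraries 4 (2.16%), with 0 to 1 (0 to 0.382%) without any 1 sample. For age on SD, against 34 (30.5%), leaving out both intron-rich samples gave 22 (19.3%), with 24 to 30 (23.4 to 28.2%) without any 1 sample. For age on HFD, against 42 (39.5%), the acinar covariate gave 21 (21.8%), with 30 to 37 (30.1 to 32.2%) without any 1 sample. The cause of these shifts was not tested. For promoter methylation the number was 0 in every alternative.

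Between SD and HFD samples of the same number, deviations from the group mean correlated at -0.198 to 0.0318 over genes. Between differently numbered samples they correlated at -0.2023 to 0.2765. With 3 samples per group this cannot decide whether the numbers mark a pairing or a shared batch. With the replicate block, 0 members passed for diet in young islets, 0 for diet in old islets, 0 for the interaction, 35 for age on SD (31% of all genes) and 44 for age on HFD (39.7%).

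The lowest raw count of a member in a library was 85, and the part of counting error in the RNA tests was not measured. Read depth left 3 promoters for the methylation tests.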

Other observations

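Trp53cor1 lies 12018 bp head to head from Cdkn1a, a cell cycle inhibitor gene that p53 induces as well. This pair was chosen after its values were seen. In old islets Cdkn1a was higher on HFD (log2 1.04, SE 0.17, adjusted p = 0.0293 by edgeR), while Trp53cor1 was at -0.47 (SE 0.23, adjusted p = 0.286), with 3.84, 3.17 and 2.94 CPM on SD and 1.73, 2.54 and 2.14 CPM on HFD. The Trp53cor1 groups did not overlap, in the direction opposite to its neighbour. In young islets Cdkn1a was at 0.76 (SE 0.14, adjusted p = 0.109) and Trp53cor1 at -0.46 (SE 0.20, adjusted p = 0.305), neither past the threshold.

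Among members that RefSeq lists as protein-coding, 1810058I24Rik was lower with age on HFD (log2 -0.35, SE 0.08, adjusted p = 0.00757 by edgeR) and C330006A16Rik likewise (-0.22, SE 0.06, adjusted p = 0.0137). On SD they were at -0.07 (adjusted p = 0.568) and -0.16 (adjusted p = 0.0596). 1810058I24Rik was at 17.7, 19.05 and 17.7 CPM in young and 14.8, 14.7 and 12.1 CPM in old HFD samples, without overlap. It was named after its values were seen.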
